A study of Mus musculus with 20 samples.

Results

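The genes described here are 10 immediate-early and heat-shock genes of the mouse: Fos, Fosb, Jun, Junb, Egr1, Ier2, Atf3, Hspa1a, Hspa1b and Dusp1. They were picked by name, for their high counts in macrophages and CD11b+ cells sorted from colorectal liver metastases (CRLM), and were found under those names among the 54532 genes of the count tables. That high level in the sorted cells is therefore how they were chosen and is given as a description, with no test. All 10 passed the filter on low counts in every fit.

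RNA had been sequenced from a CRLM model in wild-type C57BL/6 mice, in 14 libraries of liver tissue and 6 of sorted cells. Control livers (con, 2 libraries, day 0) came from mice given normal saline. All other groups came from mice that had received 1000000 Mc38 cells, a mouse colon adenocarcinoma line, by the spleen-portal route. Metastases with a low tumor content (Lt, 2 libraries) and a medium content (Mt3, 2 libraries) were taken on day 9, further medium-content metastases (Mt2 and Mt1, 2 libraries each) on day 11, and high-content metastases (Ht, 3 libraries) on day 12. A single library of tumor-free liver remote from the metastases (L-con) also came from day 12. F4/80+ and CD11b+ cells (3 libraries each) were selected with microbeads from day 11 metastases of the Mt2 type, so CD11b+ here is what the beads held and may include monocytes, granulocytes and macrophages. A pair of the Ht libraries, replicates 1 and 3, are described as made identical, and they were summed here, which left 13 tissue samples. The labels give the mice as male and the methods as female, and only the methods give an age, that of young adults. The methods describe separate livers for the tissue groups, while nothing says whether the sorted libraries of a population came from separate animals, so p-values between the sorted populations measure the spread between these libraries, which may be technical.

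Immediate-early genes are transcribed within minutes of a stimulus, without new protein synthesis, when kinases of the MAPK pathways act on transcription factors that already sit in the cell, such as SRF with its Elk partners and CREB. Many encode transcription factors themselves: Fos and Jun proteins pair through leucine zippers to form AP-1, which binds short DNA sites. Their mRNAs are short-lived, and phosphatases such as DUSP1 remove the phosphates from the MAPKs again. The inducible Hsp70 genes Hspa1a and Hspa1b are switched on by HSF1 when proteins unfold. In the liver, several of these genes are known as the early genes of regeneration after part of the organ is removed.

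The promoters of 5 members are shown because they carry the sequence elements by which these groups are known. The letters are the coding strand, 5′ to 3′, from RefSeq on GRCm38.p6, ending at the base before the gene start in the count tables. Capitals mark TGACG, the core of the CREB site TGACGTCA (itself in capitals in Dusp1), the TATA box TATAAA, the CCAAT box read as ATTGG, and the heat-shock element GAANNTTC.
Fos, chr12:85473640-85473889, plus strand: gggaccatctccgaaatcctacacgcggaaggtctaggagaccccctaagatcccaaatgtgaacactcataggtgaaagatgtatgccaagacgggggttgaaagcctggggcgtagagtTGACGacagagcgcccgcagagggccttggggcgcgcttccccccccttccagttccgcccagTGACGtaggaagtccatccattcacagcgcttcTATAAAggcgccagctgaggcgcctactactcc
Fosb, chr7:19310052-19310295, minus strand: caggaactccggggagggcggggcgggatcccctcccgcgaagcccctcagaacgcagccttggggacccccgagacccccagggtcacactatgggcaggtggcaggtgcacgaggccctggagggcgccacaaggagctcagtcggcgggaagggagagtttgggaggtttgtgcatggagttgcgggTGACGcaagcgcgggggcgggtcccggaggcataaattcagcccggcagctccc
Dusp1, chr17:26508520-26508722, minus strand: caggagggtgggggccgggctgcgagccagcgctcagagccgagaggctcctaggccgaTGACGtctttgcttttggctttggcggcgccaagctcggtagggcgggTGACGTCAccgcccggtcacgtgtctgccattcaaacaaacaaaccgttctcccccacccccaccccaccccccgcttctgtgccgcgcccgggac
Hspa1a, chr17:34972157-34972406, minus strand: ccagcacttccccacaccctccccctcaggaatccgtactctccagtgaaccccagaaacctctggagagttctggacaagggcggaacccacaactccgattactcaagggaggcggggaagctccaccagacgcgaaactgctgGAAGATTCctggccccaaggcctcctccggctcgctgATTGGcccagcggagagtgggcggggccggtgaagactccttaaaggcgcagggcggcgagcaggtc
Hspa1b, chr17:34959239-34959488, minus strand: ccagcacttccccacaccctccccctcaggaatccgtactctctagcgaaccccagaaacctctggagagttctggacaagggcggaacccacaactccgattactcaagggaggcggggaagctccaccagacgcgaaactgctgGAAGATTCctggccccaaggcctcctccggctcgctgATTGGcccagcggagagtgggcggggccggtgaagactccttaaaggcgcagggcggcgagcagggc

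RefSeq promoters were matched for 8 of the 10 members, all but Egr1 and Ier2, and each motif was searched on both strands of the 250 bases before the RefSeq start. That start is the one of the count tables for Fos, Jun, Hspa1a and Hspa1b and lies shortly before it for Junb. For Fosb and Dusp1 it lies just within the deposited gene, so the letters shown were trimmed, and for Atf3 it is a start far inside the deposited span. TGACG was in 5 of the 8 (Fos, Fosb, Junb, Atf3 and Dusp1) and in 17.77% of 32851 promoters. Its full form TGACGTCA, which overlaps TGACG, was in Dusp1 and in 1.546% of promoters. GAANNTTC was in Jun, Hspa1a and Hspa1b and in 6.694% of promoters, while its other phase TTCNNGAA was in none of the 8 and in 7.166%. In Fos the TGACG matches began at -129 and -66 from the start and TATAAA at -33. In both Hsp70 genes the sequence GAAGATTC began at -104. The AP-1 site TGANTCA was in none of the 8 windows and in 6.749% of promoters, and the CArG box, at which SRF binds, was in none of the 8 and in 1.467%. Bases further than 250 from the start were not searched, so the windows do not show whether a gene lacks such sites. CCAAT was in 4 of the 8 and in 33.85% of promoters, GGGCGG in 7 of the 8 and in 32.74%, and TATAAA in Fos alone of the 8 and in 12.37%. A match is a description of these letters only.

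As genes, the members were short. Their median span from first to last base was 3286.5 bases, against 23652 over the 14404 protein-coding genes tested, and 9 of 10 were below that median. Atf3 was the exception, at chr1:191170296-191218039 with a span of 47744 bases. Jun, Junb, Ier2, Hspa1a and Hspa1b had a single exon in their principal transcript (5 of 10, 50%), against 2.82% of protein-coding genes tested. The sequence TATTTAT, a core of the elements that mark short-lived mRNAs, was present in the 3′ UTR of Fos, Fosb, Jun, Atf3 and Dusp1 (50% of members), against 28.7% of 14273 genes with a 3′ UTR. Ier2 spanned 1522 bases, at chr8:84661331-84662852, and Fosb 7356 bases, at chr7:19302696-19310051.

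Hspa1a and Hspa1b are near-identical neighbours on chromosome 17. Their coding sequences of 1923 and 1926 bases were 99.4% identical, and their 250 promoter bases differed at 3 positions. Of the stretches of 100 bases in the Hspa1a exons, 56.5% also occurred in another gene, and 49.9% of those in Hspa1b. How reads that fit both genes were counted is not given in the sources used here, so the split between these 2 genes is uncertain. In the gene spans of the count table, Jun overlaps the antisense gene Junos by 689 bases, Junb overlaps Prdx2 by 351, Hspa1a overlaps Gm20481 by 2225 and Atf3 overlaps Gm24748 by 108, each on the opposite strand, and the strand setting of the counting is not given either.

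The libraries held between 16032085 and 18246623 counts in tissue and between 17785496 and 20548370 in sorted cells. The summed level of 13 hepatocyte markers was 187633 to 215923 CPM (read counts scaled by library size) in con, 28790 to 111264 for Mt2, 3885 to 5393 for Ht and 77.3 to 359 in the sorted cells. The summed level of 13 macrophage markers was 611 to 883 CPM for con, 2095 to 2844 for Mt2, 21199 to 22851 in F4/80+ and 19490 to 31823 in CD11b+ cells, and none was at 0. Neutrophil markers (10 genes) summed to 179 to 700 CPM in F4/80+ and 1309 to 4879 CPM in CD11b+ cells, and Kupffer cell markers (6 genes) to 657 to 2468 and 113 to 140 CPM. In bulk tissue, fewer cells of a type and less RNA per cell cannot be told apart.

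The members took up a far larger part of the sorted libraries than of the tissue libraries. Together they held 0.691% to 1.44% of all counts in the sorted cells and 0.0121% to 0.0496% in tissue. Ranked by level per kilobase of exon (FPKM) among 18407 genes, Fos stood at place 25 in F4/80+ and 38 in CD11b+ cells, against 7224 in Mt2 and 12755 in con. Dusp1 stood at places 54 and 53 in the sorted cells, at 2001 in Mt2 and at 2215 in con. Fosb and Egr1 had the lowest levels of the 10 in the sorted cells, at places 600 and 1222 in F4/80+ and 1215 and 852 in CD11b+ cells.

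**Figure D1:**
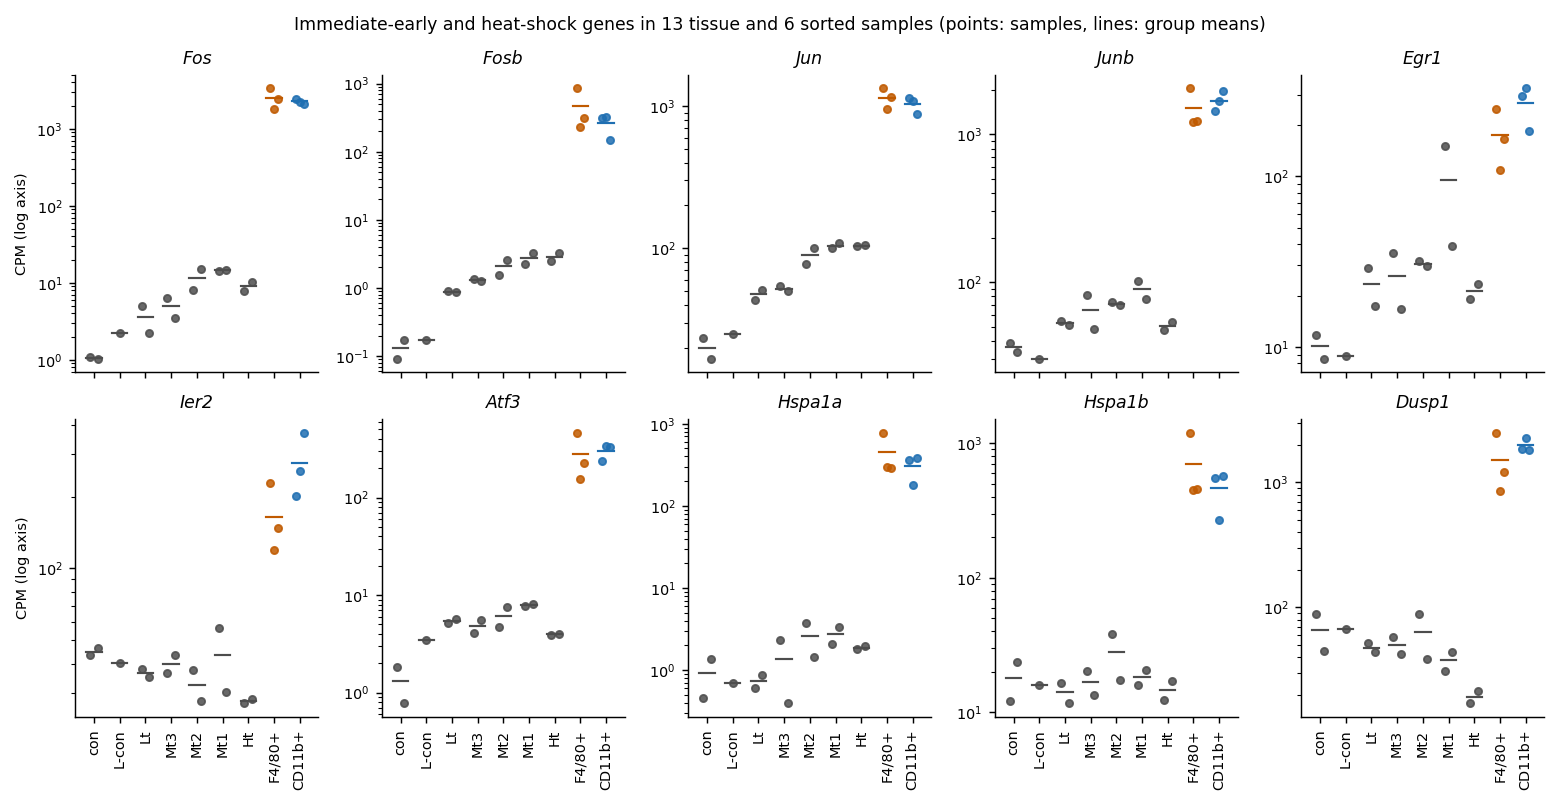
Level of each of the 10 genes in every sample, in CPM on a log axis, by group along the horizontal axis, 1 point per sample. For 9 of 10 genes the lowest sorted sample lies above the highest tissue sample, the exception being Egr1 with its Mt1 replicate 1 at 151 CPM.

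Fos, the partner that gives AP-1 most of its transient activity, was the highest member per length in both sorted populations. It was at 3384, 1836 and 2415 CPM in F4/80+ and at 2446, 2238 and 2122 CPM in CD11b+ cells. In Mt2 tissue, from which the cells were selected, it was at 8.07 and 15.2 CPM. The log2 difference in level was 7.77 for F4/80+ and 7.60 for CD11b+ cells, or 218-fold and 194-fold. The lowest sorted library lay 121-fold above the highest tissue library, the widest such gap among the members.

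Fosb, a Fos relative with the same dimer partners, was at 860.1, 232 and 309 CPM in F4/80+ and at 316, 328 and 148 CPM in CD11b+ cells, against 1.56 and 2.58 CPM in Mt2. These were log2 differences of 7.79 and 6.97. F4/80+ replicate 1 stood well above its 2 companions, and without it the first was 7.0. Jun, the main partner of the Fos proteins, was at 1339.6, 949 and 1152 CPM in F4/80+ and at 1133, 1089 and 874 CPM in CD11b+ cells. Against 77.3 and 101 CPM in Mt2 this was 12.8-fold and 11.6-fold. Jun thus had a smaller fold than Fos. As a ratio of counts, which is not corrected for gene length and can be read only between samples, Fos was 0.0430 to 0.150 times Jun in the 13 tissue samples and 1.93 to 2.53 times Jun in the 6 sorted libraries.

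Junb, an AP-1 member that often restrains Jun, was at 2051, 1214 and 1234 CPM in F4/80+ and at 1432, 1685 and 1951 CPM in CD11b+ cells, with 72.8 and 69.7 CPM in Mt2. The fold over Mt2 was 21.0 and 23.7. Atf3, a stress-induced factor of the ATF/CREB family that can pair with Jun, was at 463, 156 and 228 CPM in F4/80+, at 235, 335 and 334 CPM in CD11b+ cells and at 4.69 and 7.49 CPM in Mt2. Its fold over Mt2 was 46.0 and 49.1. The sorted libraries thus lay apart from tissue for each of the 5 bZIP factors.

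Egr1 and Ier2 had the smallest differences. Egr1, a zinc-finger factor induced through SRF, was at 248, 108 and 165 CPM in F4/80+, at 293, 329 and 183 CPM in CD11b+ cells and at 31.8 and 29.6 CPM in Mt2, or 5.66-fold and 8.74-fold. Ier2, a small immediate-early protein, was at 228, 119 and 148 CPM in F4/80+, at 201, 256 and 369.7 CPM in CD11b+ cells and at 37.5 and 27.8 CPM in Mt2, or 5.05-fold and 8.44-fold. Egr1 was the only member whose sorted and tissue samples overlapped: 1 tissue library, Mt1 replicate 1, was at 151 CPM and F4/80+ replicate 2 at 108 CPM.

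Dusp1, the phosphatase that switches MAPKs off in the nucleus, was at 2501, 848 and 1212 CPM in F4/80+ and at 1853, 2255 and 1834 CPM in CD11b+ cells, against 88.6 and 38.7 CPM in Mt2. The fold was 23.9 and 31.1. Hspa1a, an inducible Hsp70 chaperone, was at 778, 299 and 289.6 CPM in F4/80+ and at 359.8, 181 and 387 CPM in CD11b+ cells, against 3.78 and 1.44 CPM in Mt2. Its fold was 179 and 121. Its neighbour Hspa1b was at 1194, 451 and 457 CPM in F4/80+, at 548, 267 and 570.0 CPM in CD11b+ cells and at 38.2 and 17.5 CPM in Mt2, or 25.2-fold and 16.6-fold. Mt2 replicate 1 was the higher of the Mt2 pair for all 3 genes. Without it the log2 differences in F4/80+ and CD11b+ cells went from 4.58 and 4.96 to 5.30 and 5.68 for Dusp1, from 7.48 and 6.92 to 8.30 and 7.74 for Hspa1a, and from 4.66 and 4.05 to 5.32 and 4.72 for Hspa1b. Without F4/80+ replicate 1 the F4/80+ values were 6.86 for Hspa1a and 4.03 for Hspa1b.

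Over the 10 members the median log2 difference from Mt2 was 4.62 in F4/80+ and 4.76 in CD11b+ cells, against -0.12 and -0.08 over all 18407 genes of the joint fit. For the 13 macrophage markers the median was 3.03 and 3.07, with Ier2 at 2.34 and 3.08 and Egr1 at 2.50 and 3.13. The part of macrophage enrichment in the members' values was not tested. Against the mean of all metastasis groups the members' medians were 5.27 and 5.16. The sorted libraries were deposited as a table of their own, and their cells had been taken out of the tissue for the bead selection. Effects of the table, of tissue dissociation and handling, of the bead selection and of cell identity therefore cannot be told apart here. A response of these genes to dissociation was not tested.

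Per length, the order of the members differed between tissue and sorted cells. In con the order was led by Ier2 (29.5 ± 1.44 FPKM, SD, n = 2), Dusp1 (24.7 ± 11.3) and Junb (15.7 ± 1.59), and Fos stood at place 8 with 0.454 ± 0.0192 FPKM. In Mt2 it was led by Junb (31.0 ± 0.944 FPKM, SD, n = 2), Jun (28.0 ± 5.30) and Dusp1 (23.6 ± 13.1), and Fos stood at place 7 with 4.94 ± 2.14 FPKM. In CD11b+ cells it was led by Fos (964 ± 69.8 FPKM, SD, n = 3), whose 3 values lay above those of Dusp1 (734 ± 88.3). Dusp1 and Junb (734 ± 113) overlapped, Junb lay above Jun (324 ± 43.6), and Jun above Ier2 (181 ± 56.5). From Ier2 down to Fosb each gene overlapped the next. In F4/80+ cells the order was Fos (1082 ± 333 FPKM, SD, n = 3), Junb, Dusp1, Jun, Hspa1b, Hspa1a, Atf3, Ier2, Fosb and Egr1 (38.8 ± 15.7), and every gene overlapped the next.

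The spread among the F4/80+ libraries was shared by all 10 genes. Replicate 1 was the highest of the 3 for all 10, at a median of 2.11 times the mean of the other 2 (range 1.28 to 3.18), and replicate 2 was the lowest for 9. Among the CD11b+ libraries no replicate was the highest for more than 4 members. Across the 6 sorted libraries, Hspa1a and Hspa1b moved together (Pearson r of log2 CPM 0.999), as did Fosb and Jun (0.94), Junb and Atf3 (0.93) and Atf3 and Dusp1 (0.92). The 6 points share a preparation and 2 populations, and these values are descriptions.

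The comparison of F4/80+ with CD11b+ cells asks how the genes differ between the macrophages and the wider myeloid population of day 11 metastases of the Mt2 type. None of the 10 members was called by edgeR's quasi-likelihood test (a call needs an adjusted p up to 0.05 and a change of 2-fold or more), with 0.0771% of 14263 genes called (0.00701% higher and 0.0701% lower). At an unadjusted p under 0.05 there were 1 member, Ier2, and 1503 of all genes, and DESeq2 called 0 members and 300 genes. The log2 difference for Ier2 was -0.79 ± 0.31 (SE, lower in F4/80+, 95% interval -1.51 to -0.08, adjusted p = 0.459). For Fos it was 0.12 ± 0.25 (interval -0.46 to 0.70), and for Jun 0.10 ± 0.20 (-0.36 to 0.57). The intervals for Fosb (-0.43 to 1.98), Hspa1a (-0.53 to 1.55) and Hspa1b (-0.50 to 1.60) left room for differences above 2-fold. Those for Egr1 (-1.45 to 0.10), Dusp1 (-1.31 to 0.45) and Atf3 (-1.04 to 0.75) did so in the other direction, as did that for Ier2. For all 10 members the 2 groups overlapped. Without F4/80+ replicate 1 the signs for Fos, Fosb, Jun, Hspa1a and Hspa1b turned, to values between -0.15 and -0.02.

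**Figure D2:**
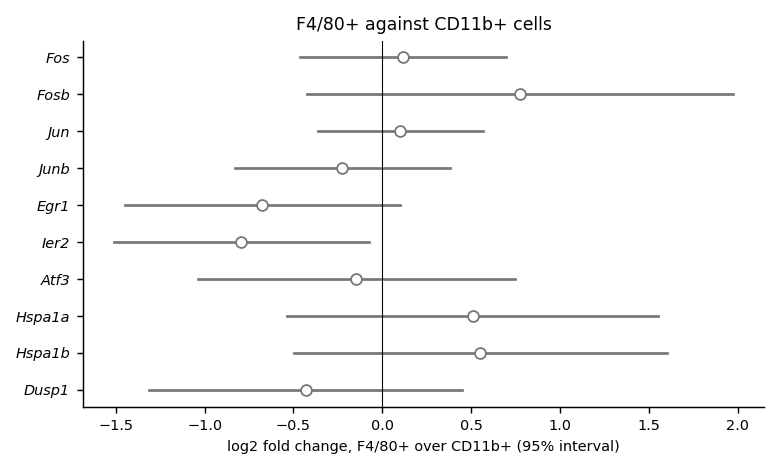
Log2 difference in level of each of the 10 genes between F4/80+ and CD11b+ cells (3 libraries each), as a point with its 95% interval; values above 0 are higher in F4/80+ cells. No gene was called, and the interval misses 0 only for Ier2 (-1.51 to -0.08).

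In tissue, the comparison of control liver with the metastases as a whole asks which of these genes differ in the bulk tissue. Fos, Fosb, Jun, Egr1 and Atf3 were higher in CRLM, while both Hsp70 genes and Ier2 were not called. Here CRLM stands for the 5 metastasis groups, each with equal weight on the log2 scale. The test called 5 of the 10 members higher and 0 lower, with 35.4% of 17187 genes called (20.9% higher and 14.5% lower). The median log2 difference of the members was 1.26, against 0.07 over all genes. Hepatocyte markers fell (9 of 13 called lower) and macrophage markers rose (9 of 13 called higher) in the same comparison, and their part in the members' values was not tested.

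Fos was at 1.10 and 1.04 CPM for con, 5.0 and 2.20 for Lt, 6.38 and 3.47 for Mt3, 8.07 and 15.2 for Mt2, 14.3 and 14.9 for Mt1, and 7.79 and 10.1 for Ht. Every metastasis library was above both controls. From con to CRLM it rose by 2.83 ± 0.46 on the log2 scale (SE, adjusted p = 0.00132). Fosb was at 0.0916 and 0.173 CPM for con, which is 1 and 2 counts, then 0.896 and 0.868 for Lt, 1.33 and 1.24 for Mt3, 1.56 and 2.58 for Mt2, 2.24 and 3.31 for Mt1, and 2.53 and 3.26 for Ht. It rose by 3.69 ± 0.51 (adjusted p = 0.00063), a value that depends on the prior count because con is so low. The ratio of its normalised counts in CRLM to con was 16.7, with a 95% counting interval of 5.69 to 81.4. In all metastasis libraries both genes were above both con libraries and far below the sorted cells.

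Jun was at 23.3 and 16.7 CPM for con, 43.6 and 51.3 for Lt, 54.0 and 49.7 for Mt3, 77.3 and 101 for Mt2, 100.03 and 108 for Mt1, and 103 and 104.8 for Ht. It rose by 1.90 ± 0.18 (adjusted p = 0.000197), with the smallest relative error among the called members. Atf3 was at 1.83 and 0.776 CPM for con, 5.15 and 5.74 for Lt, 4.07 and 5.50 for Mt3, 4.69 and 7.49 for Mt2, 7.76 and 8.08 for Mt1, and 3.92 and 3.99 for Ht, and rose by 2.06 ± 0.36 (adjusted p = 0.00172). The rise of Atf3 was 1.56 without con replicate 2 and 2.81 without con replicate 1. The Lt values of Atf3 lay within the range of the Mt samples, and those of Jun overlapped the Mt3 values. Junb was at 38.7 and 33.6 CPM for con, 54.2 and 50.9 for Lt, 81.2 and 47.9 for Mt3, 72.8 and 69.7 for Mt2, 102 and 76.9 for Mt1, and 47.1 and 54.0 for Ht. Its log2 difference of 0.82 ± 0.20 had an adjusted p of 0.00853 and fell short of the 2-fold threshold. With scaling to total counts it was called, at 1.49 (adjusted p = 0.000825), where the median of all genes moved to 0.75 and the difference relative to that median was 0.73, against 0.74 under TMM.

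Egr1 was at 11.8 and 8.54 CPM for con, 29.2 and 17.5 for Lt, 35.3 and 16.6 for Mt3, 31.8 and 29.6 for Mt2, 151 and 39.2 for Mt1, and 19.1 and 23.5 for Ht. It rose by 1.67 ± 0.51 from con to CRLM (adjusted p = 0.0209). The call was lost without con replicate 1 (log2 difference 1.93, adjusted p = 0.0753) and without con replicate 2 (1.45, 0.150). Mt1 replicate 1 stood apart, and without it the log2 difference was 1.42 (adjusted p = 0.00699). Junb and Egr1 were each higher in the replicate with more hepatocyte signal in all 6 groups of 2 samples, and Dusp1 in 5 of the 6.

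Ier2 and Dusp1 did not follow the AP-1 genes. Ier2 was at 43.3 and 46.4 CPM for con, 38.1 and 35.0 for Lt, 36.5 and 43.3 for Mt3, 37.5 and 27.8 for Mt2, 56.4 and 30.4 for Mt1, and 27.3 and 28.5 for Ht. Dusp1 was at 88.0 and 45.03 CPM for con, 51.5 and 43.7 for Lt, 57.5 and 42.1 for Mt3, 88.6 and 38.7 for Mt2, 31.1 and 44.3 for Mt1, and 17.1 and 21.3 for Ht. Replicates of con and of Mt2 lay far apart for Dusp1, and both Ht samples were below all others. The con to CRLM difference of -0.73 ± 0.31 was not called (adjusted p = 0.0691). It was -1.14 without con replicate 2 and -0.16 without con replicate 1.

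**Figure D3:**
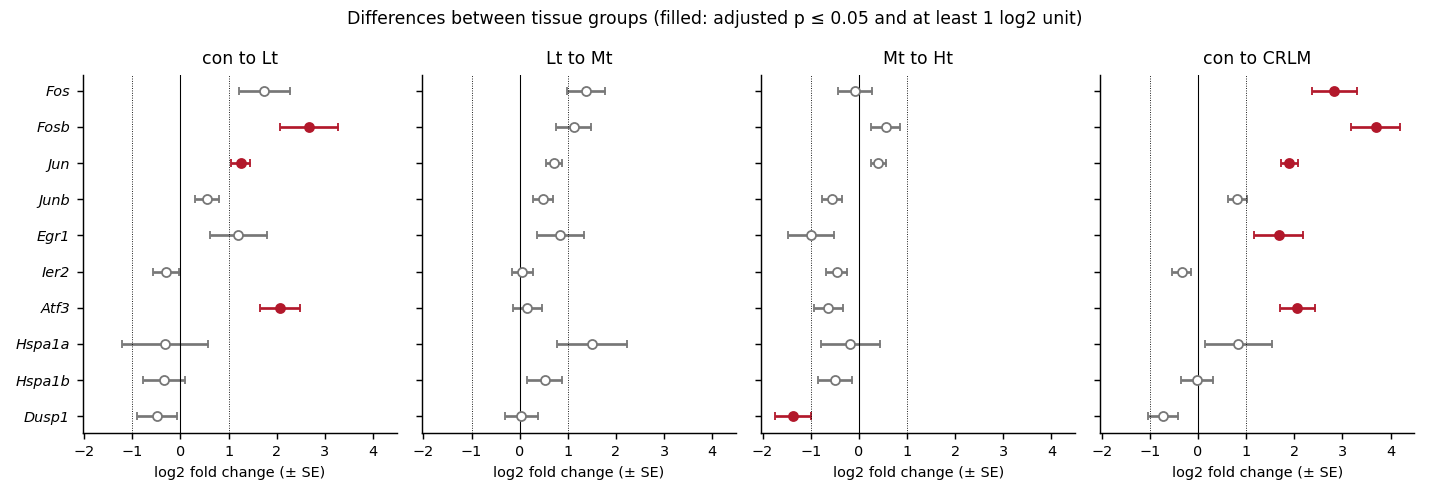
Log2 difference in level with its SE for each of the 10 genes in 4 tissue comparisons (con to Lt, Lt to Mt, Mt to Ht, con to CRLM); filled points were called. The calls stand at Fosb, Jun and Atf3 for con to Lt, at Dusp1 for Mt to Ht, and at Fos, Fosb, Jun, Egr1 and Atf3 for con to CRLM.

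The stages were then compared in order, beginning with con and the low-content metastases of day 9. Fosb, Jun and Atf3 were higher in Lt (3 of 10 members higher and 0 lower, with 12.7% of all genes called, 12.4% higher and 0.256% lower). Jun rose by 1.25 ± 0.20 on the log2 scale (adjusted p = 0.00448), Atf3 by 2.07 ± 0.41 (0.0108) and Fosb by 2.67 ± 0.60 (0.0178). For Fosb the ratio of normalised counts was 6.61, with a counting interval of 2.02 to 34.2. Fos had a log2 difference of 1.74 ± 0.53 (adjusted p = 0.0578) and was called by DESeq2 (1.69, adjusted p = 0.0247) and by edgeR without Lt replicate 2 (2.22, adjusted p = 0.0464), but was at 1.03 without Lt replicate 1 (adjusted p = 0.268). These calls rest on few libraries: without con replicate 2 none of the 3 was called (3.17, adjusted p 0.0823 for Fosb, 1.01, 0.0506 for Jun and 1.56, 0.0782 for Atf3), and the genes called in all went from 2177 to 735. Fosb was also lost without con replicate 1 (2.31, 0.106), without Lt replicate 2 (2.69, 0.0766) and with only con and Lt in the fit (2.61, 0.0576), and Atf3 without Lt replicate 2 (1.98, 0.0622). Egr1, at 1.197 with an adjusted p of 0.218, was called higher with no filter on low counts (1.19, 5.07e-05) and with only con and Lt in the fit (1.15, 0.0458). In the same comparison 7 of 13 macrophage markers (median log2 difference 1.47), 7 of 8 monocyte markers (4.72) and 6 of 10 fibroblast or stellate cell markers (2.02) were called higher and 0 of 13 hepatocyte markers were called, and their part in the members' values was not tested.

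Between Lt and the medium-content metastases (Mt, the mean of Mt3, Mt2 and Mt1) no member and no gene was called by edgeR's test (0% of 17187). At an unadjusted p under 0.05 there were 4 members and 3282 genes, and DESeq2 called 1 member and 242 genes. The log2 differences were 1.38 ± 0.39 for Fos, 1.13 ± 0.36 for Fosb and 0.71 ± 0.17 for Jun, each with an adjusted p of 0.214. Mt3 was taken on day 9, like Lt, and Mt2 and Mt1 on day 11, so content and day are partly mixed in this comparison. Without Mt2 replicate 1, Fos was called higher in Mt, at 1.52 (adjusted p = 0.0476), with 778 genes called in all. Its value was 0.90 without Lt replicate 2 and 2.09 without Lt replicate 1, not called in either.

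From Mt to Ht, Dusp1 was the only member called, and it was lower in Ht (0 of 10 higher and 1 lower, with 14.9% of genes called, 1.5% higher and 13.4% lower). It fell by 1.36 on the log2 scale (SE 0.37, adjusted p = 0.0315), and all Mt samples were above both Ht samples. The call was lost without Mt3 replicate 1 (adjusted p = 0.0655), Ht replicate 1 (0.223) or Ht replicate 2 (0.149), while the log2 difference stayed between -1.53 and -1.09 when any 1 replicate was left out. Without Ht replicate 1 none of the 17187 genes was called in this comparison. It was also lost with scaling to total counts, where the difference was -0.79 (adjusted p = 0.0669), although relative to the median of all genes Dusp1 fell by 1.37 under TMM and by 1.34 under total counts. The log2 differences of Junb (-0.56 ± 0.21, adjusted p = 0.0759) and Jun (0.40 ± 0.16, 0.0886) had opposite signs under TMM, while Junb was at 0.0041 with scaling to total counts, or -0.55 relative to the median of all genes. The ratio of Jun to Junb counts was 0.665 to 1.45 in the Mt samples and 1.94 and 2.19 in Ht. Without Mt1 replicate 2, Egr1 was also called lower, at -1.22 (adjusted p = 0.0301), and without Mt1 replicate 1, which stood apart, it was at -0.56 (adjusted p = 0.241). All 13 hepatocyte markers, all 6 Kupffer cell markers (median log2 difference -2.57) and all 5 erythroid cell markers tested (-2.28) were called lower in this comparison. Their part in the Dusp1 value was not tested.

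Between con and Ht the members split in direction. Fos, Fosb, Jun and Atf3 were higher and Dusp1 was lower in Ht (4 higher and 1 lower of 10, with 49.9% of genes called, 25.8% higher and 24.1% lower). Jun rose by 2.36 ± 0.21 on the log2 scale (adjusted p = 9.16e-05), Fos by 3.04 ± 0.51 (0.000854) and Atf3 by 1.58 ± 0.41 (0.00746). Fosb rose by 4.36 ± 0.55 (adjusted p = 0.000251), with a ratio of normalised counts of 20.9 and a counting interval of 7.05 to 102. Dusp1 fell by 1.81 (SE 0.43, adjusted p = 0.00492). Ier2 had a log2 difference of -0.70 ± 0.27 with an adjusted p of 0.0444, short of the 2-fold threshold. The share of members called (5 of 10) was near that of all genes. In the same comparison all 13 hepatocyte markers (median log2 difference -5.41) and 4 of 6 Kupffer cell markers (-1.77) were called lower. All 8 monocyte markers (5.15) were called higher, and of 13 macrophage markers 9 were higher and 1 lower (1.81). The part of these cell types in the members' values was not tested. With scaling to total counts, 7 members were called higher and 0 lower, with 8822 of all 17187 genes called higher and 2249 lower. Atf3 was lost without con replicate 2 (adjusted p = 0.052), and Dusp1 with scaling to total counts (-0.62, adjusted p = 0.157), where relative to the median of all genes it fell by 1.90, against 1.91 under TMM. Egr1, at 1.05 with an adjusted p of 0.144, was called higher with scaling to total counts (2.24, 0.00236), with no filter on low counts (1.17, 2.08e-05) and with only con and Ht in the fit (1.10, 0.00471).

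A test for any difference among the 6 tissue groups with replicates called Fos, Fosb, Jun, Junb, Egr1 and Atf3 (6 of 10, with 48% of genes called by adjusted p alone, 0.05 or less, without a fold threshold). Dusp1 had an adjusted p of 0.052. Across the 13 tissue samples, Fosb and Jun had a Pearson r of log2 CPM of 0.97, Fos and Jun 0.93, and Fos and Fosb 0.93. Junb and Egr1 went together at 0.93. Dusp1 and Fosb stood at -0.64 and Ier2 and Fosb at -0.58. The samples share the course of tumor content and hepatocyte loss, and these values are descriptions.

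The Hsp70 pair was not called in any tissue comparison of the reported fit, although Hspa1a was called higher from con to Ht with scaling to total counts (2.17, adjusted p = 0.0328) and from Lt to Mt with no filter on low counts (1.53, adjusted p = 0.0399). Hspa1a was at 0.458 and 1.38 CPM for con, 0.597 and 0.868 for Lt, 2.31 and 0.393 for Mt3, 3.78 and 1.44 for Mt2, 2.06 and 3.36 for Mt1, and 1.80 and 1.94 for Ht. Hspa1b was at 12.1 and 23.6 CPM for con, 16.6 and 11.7 for Lt, 20.4 and 13.5 for Mt3, 38.2 and 17.5 for Mt2, 15.9 and 20.7 for Mt1, and 12.3 and 17.0 for Ht. From con to CRLM the log2 difference of Hspa1b was -0.02 ± 0.33 (95% interval -0.77 to 0.74) and that of Hspa1a 0.84 ± 0.69 (-0.72 to 2.40). Changes of 2-fold were thus outside the interval for Hspa1b and inside it for Hspa1a. The Hspa1a difference was 0.27 without con replicate 1 and 1.84 without con replicate 2.

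The ratio of the 2 genes separated the kinds of sample. Hspa1b counts were 26.4 and 17.1 times those of Hspa1a for con, 23 for L-con, 27.8 and 13.5 for Lt, 8.82 and 34.3 for Mt3, 10.1 and 12.2 for Mt2, 7.71 and 6.16 for Mt1, and 6.83 and 8.74 for Ht. In the sorted cells the ratio was 1.54, 1.51 and 1.58 in F4/80+ and 1.52, 1.48 and 1.47 in CD11b+ cells. The sorted ratios thus lay within 1.47 to 1.58 and the tissue ratios within 6.16 to 34.3. Since the counting of reads shared by these genes is not known, the ratio describes the tables only.

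**Figure D4:**
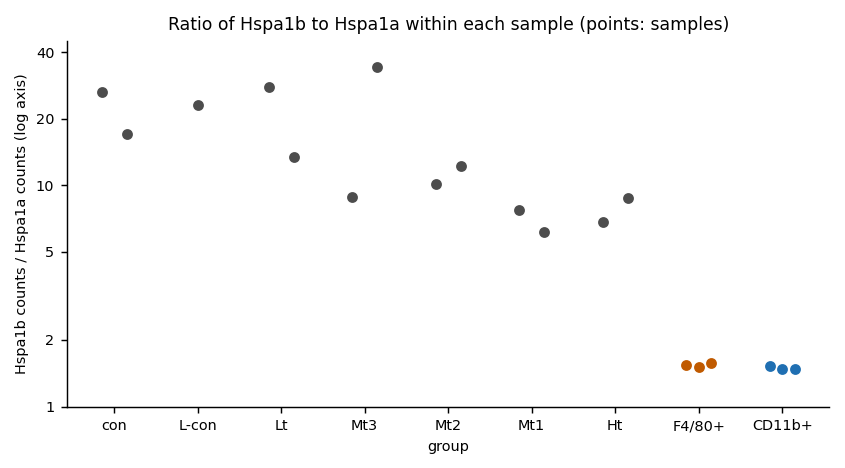
Ratio of Hspa1b to Hspa1a counts in each sample, on a log axis, by group. The 13 tissue samples lie between 6.16 and 34.3, and the 6 sorted libraries between 1.47 and 1.58.

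Other genes of the same pathways were followed as 5 lists with 105 genes in all, none of them members. In the sorted cells against Mt2, most other immediate-early genes were higher, while other heat-shock genes were either lower or not called. Of 34 other immediate-early genes, 27 were higher and 2 lower in F4/80+ (median log2 difference 2.20), and 26 and 2 in CD11b+ cells (2.37), with 42.3% and 43.9% of all genes called (17.2% and 17.6% higher, 25.2% and 26.3% lower). Of 24 other heat-shock genes, 0 were higher and 10 lower in each population (medians -0.77 and -0.61). In the same comparisons all 13 hepatocyte markers (medians -8.41 and -9.33) and all 10 fibroblast or stellate cell markers (-4.85 and -4.87) were called lower. Of 13 macrophage markers, 12 and 11 were called higher and 0 and 1 lower (medians 3.03 and 3.07). Of 8 monocyte markers, 7 were higher and 1 lower in each (3.03 and 3.54). Of 10 neutrophil markers, 7 and 9 were higher and 1 and 0 lower (3.69 and 6.87). The part of these cell types in the lists' values was not tested. The same Mt2 samples serve both comparisons. Over the 5 lists, 62 of 105 genes were called in F4/80+ and 63 in CD11b+ cells.

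Among the immediate-early genes, the nuclear receptor Nr4a1 was at 7.88 and 8.46 CPM in Mt2, at 583, 162 and 242 CPM in F4/80+ and at 343, 521 and 357 CPM in CD11b+ cells. This was a log2 difference of 5.33 and 5.64. Zfp36, which encodes an mRNA-decay factor that binds AU-rich elements, was higher by 5.03 and 5.22 and Nfkbiz, a nuclear regulator of NF-kB, by 4.26 and 4.24. The Mt2 samples lay apart for Nfkbiz, at 9.77 and 23.7 CPM. In the other direction, Ctgf, a matrix-associated growth factor gene, was lower, at -3.33 and -4.05 and Ier5l by -1.60 and -1.66. All differences given here are on the log2 scale from Mt2, in F4/80+ and then in CD11b+ cells.

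Of the 12 other AP-1 family genes, 6 were higher and 1 lower in each population (medians 0.96 and 1.07). The Batf genes, which encode small AP-1 proteins of immune cells, led: Batf3 by 2.94 and 3.48, Batf by 2.84 and 3.15, and Batf2 by 2.59 and 2.60. Batf3 was at 22.2, 18.6 and 77.6 CPM in CD11b+ cells, so its lead there leans on replicate 3. Fosl1, a Fos relative often high in carcinoma cells, was the lower gene, at -2.43 and -3.51. Fosl1 was at 20.8 and 39.6 CPM in Mt2, at 5.86, 4.91 and 6.07 CPM in F4/80+ and at 4.18, 2.24 and 1.45 CPM in CD11b+ cells. Fos and Fosl1 thus had their higher level in opposite kinds of sample.

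MAPK feedback genes were divided, with 3 of 15 higher and 6 lower in F4/80+ and 3 and 7 in CD11b+ cells (medians -0.17 and -0.58). All genes were called higher at 17.2% and 17.6% and lower at 25.2% and 26.3%, so the count of higher feedback genes was near that of all genes. Dusp2, a nuclear MAPK phosphatase of leukocytes, was higher by 3.51 and 3.45 and Dusp6, a cytoplasmic ERK phosphatase, by 1.87 and 1.61. Spry1, an inhibitor of receptor signaling, was lower, at -3.08 and -3.63 and Dusp8 by -2.95 and -3.40. Of 20 upstream kinases and factors, 7 were higher and 0 lower in F4/80+ and 7 and 1 in CD11b+ cells (medians 0.55 and 0.37). Among them Rps6ka1, a kinase below ERK, was higher by 3.17 and 3.0, and Mapkapk2, a kinase below p38, by 1.48 and 1.53.

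The heat-shock genes other than the members did not share the members' pattern. Hspb8, a small heat-shock protein gene, was at 245 and 142 CPM in Mt2, at 4.80, 6.68 and 8.29 CPM in F4/80+ and at 3.94, 3.43 and 4.18 CPM in CD11b+ cells, lower at -4.87 and -5.65 on the log2 scale. Dnaja4, a co-chaperone gene, was lower, at -2.85 and -3.72, and Hspb1, encoding another small heat-shock protein, by -2.42 and -2.54. Hspb1 was at 8.99, 1.57 and 2.12 CPM in F4/80+ cells, so its value there leans on replicate 1. The constitutive Hsp70 gene Hspa8 (log2 differences 0.07 and 0.22), the regulator Hsf1 (0.31 and 0.28) and the Hsp70 co-chaperone Dnajb1 (0.36 and 0.13) were not called. These 3 were chosen after their values were seen.

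**Figure D5:**
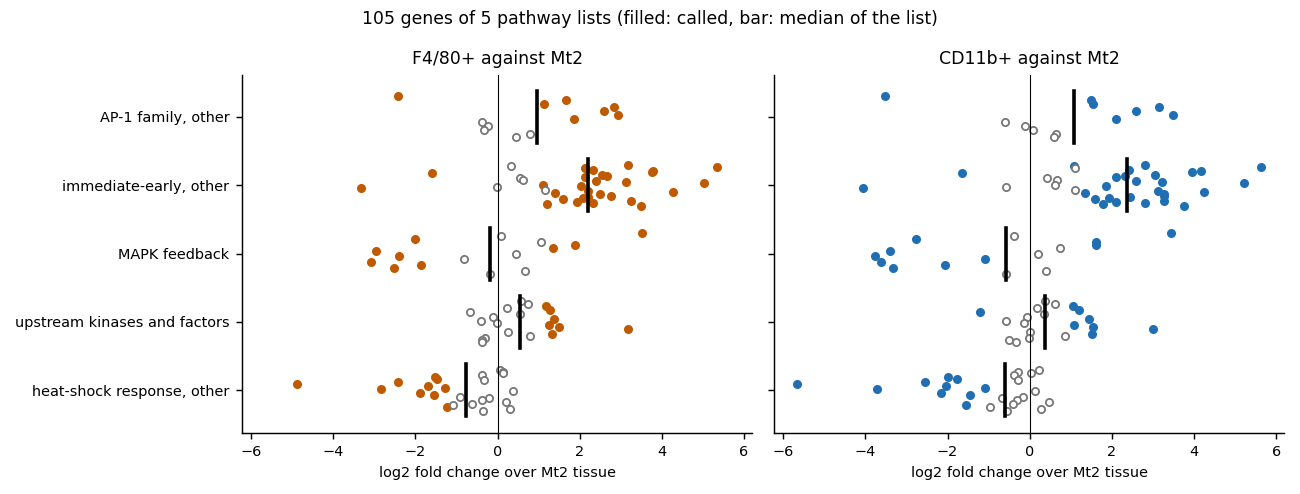
Log2 difference of 105 pathway genes in 5 lists between sorted cells and Mt2 tissue, 1 point per gene, filled where called, with a bar at the list median. Other immediate-early genes have medians of 2.20 and 2.37 and other heat-shock genes of -0.77 and -0.61.

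In tissue, from con to CRLM, most AP-1 family and MAPK feedback genes and 17 of 34 other immediate-early genes were called higher, and few upstream or heat-shock genes were. AP-1 family genes were called higher for 7 of 12 and lower for 1, other immediate-early genes for 17 and 1 of 34, and MAPK feedback genes for 10 and 1 of 15 (median log2 differences 1.49, 0.99 and 1.43, against 0.07 over all genes and with 35.4% of genes called). Upstream kinases and factors were higher for 3 of 20 (15%) and lower for 0, and heat-shock genes for 2 (8.33%) and 0 of 24, shares below the 20.9% of all genes called higher. Fosl1 was at 0.183 and 0.173 CPM for con, 7.91 and 14.7 for Lt, 20.8 and 39.6 for Mt2, and 44.7 and 45.4 for Ht. Its con value is 2 counts in each library, and the ratio of normalised counts in CRLM to con was 177, with a counting interval of 69.0 to 649.

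Spry2, a feedback inhibitor of receptor tyrosine kinase signaling, had a log2 difference of 4.17 from con to CRLM, Dusp5, a nuclear ERK phosphatase, of 3.08 and Dusp2 of 2.74. Dusp2 had only 18 and 3 counts in the con libraries, so its value is imprecise. Batf2 rose by 3.43 and Jdp2, a repressor among the AP-1 proteins, by 2.54, while the small Maf gene Mafg was lower, at -1.05. Among the immediate-early genes Ier5l rose by 2.85 and Nr4a2 by 2.83, and Nfil3 was lower, at -1.22. Egr3, a relative of Egr1, was also called higher, and no fold is given because it had 0 counts in both con libraries, which allows up to 3 counts in each. Its level was 0.896 to 3.66 CPM in the metastasis samples. The 2 heat-shock genes that rose were Hsph1 and Hsp90aa1, both by 1.03. Spry2 was at 1.74 and 0.949 CPM in con and at 46.3 and 42.3 for Ht, above the 5.75 to 9.30 CPM of the sorted libraries.

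Along the stages, con to Lt (12.7% of all genes called) called 5 of 12 AP-1 genes, 8 of 34 immediate-early genes and 4 of 15 MAPK feedback genes, all higher, and none of the 20 upstream or 24 heat-shock genes. Lt to Mt called none of the 105. Mt to Ht (14.9% of all genes) called 1 immediate-early gene higher (Per1, a clock gene, 1.15) and 2 lower (Nfil3, -1.69, and Zfp36, -1.13), 1 feedback gene lower (Dusp16) and 2 heat-shock genes lower (Hspb1, -1.39, and Hspb8, -1.23). Zfp36 was at 101 and 77.5 CPM for con, 71.3 and 54.0 for Mt2 and 26.3 and 29.7 for Ht, a course with the lowest values in Ht like that of Dusp1. Between con and Ht (49.9% of all genes called), 7 of 12 AP-1 genes were higher and 1 lower, 19 and 2 of 34 immediate-early genes and 11 and 2 of 15 feedback genes. The counts were 6 and 1 of 20 upstream genes (35%) and 2 and 5 of 24 heat-shock genes (29.2%), shares below that of all genes. Between F4/80+ and CD11b+ cells none of the 104 list genes tested was called.

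The genes whose level was most like that of 3 members over the 13 tissue samples were found among 12945 genes, by Pearson r of log2(CPM + 1). For Fos they were Nrg1 (0.95), Tgif1 (0.95), Ccdc120 (0.94) and Igsf8 (0.94). For Jun they were Actg1, Pdk3, Fanci and Actb, each at 0.99. For Hspa1a the values were lower, at 0.86 for Nhsl1, 0.85 for Utp20 and 0.84 for Hdac4 and 6330403L08Rik. The 13 samples share the course of tumor content, and these values are descriptions.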

How the data were processed

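RNA was measured by sequencing in 14 liver tissue and 6 sorted-cell libraries. The authors deposited raw read counts per gene in a tissue table and a sorted-cell table. Per the labels, their processing notes name CASAVA, HISAT2 2.0.5 and featureCounts 1.5.0-p3 with GRCm38/mm10. Strand setting and the handling of reads that fit several genes are not given in the sources used here. Library totals ran from 16032085 to 20548370 counts, and genes with few counts, such as Fosb in con, are measured with little precision; counting intervals cover counting error only.

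The 2 tables were joined by gene identifier, and Ht libraries 1 and 3 were summed. Counts were tested with edgeR 4.0.16 in R 4.3.3 (TMM scaling, filterByExpr, quasi-likelihood F test, Benjamini-Hochberg adjustment over all genes of a fit), and calls needed an adjusted p of 0.05 or less with a log2 fold change of 1 or more in size. The tissue fit held 13 samples and 17187 genes, the sorted fit 6 samples and 14263 genes, and the joint fit 19 samples and 18407 genes. L-con entered the tissue fit but was not tested. CPM values are on the joint TMM scale, and FPKM divides them by the deposited gene length in kilobases. The members and the gene lists were chosen with earlier results of these data known. All members were named, and from each list at most 3 called genes per direction and comparison, those of the largest log2 fold change with a mean log2 CPM of at least 1. Alternatives were DESeq2 1.42.0, total-count scaling, other filters, no fold threshold, a replicate block, other sample sets and leaving out each replicate. On simulated data with 200 changed genes, the fit recovered 45% of those with a log2 change of 1.5 and 87% of those with 3 for con to Lt (16174 genes), and 71% and 100% for F4/80+ against CD11b+ (14019 genes).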

Additional observations from a re-analysis of the deposited data

Results flagged for a closer look

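The L-con library, tumor-free liver of a mouse with metastases, entered none of the comparisons because it is a single library. Fos was at 2.25 CPM there (26 counts, 95% Poisson interval 1.47 to 3.29), against 1.10 and 1.04 CPM (12 counts each) in the 2 con libraries. Atf3 was at 3.46 CPM (40 counts, interval 2.47 to 4.71), against 1.83 and 0.776 CPM (20 and 9 counts). Both stand here because the lower bound of the L-con interval was above the value of both control libraries, in data that no comparison used. The intervals of con replicate 1 (0.568 to 1.92 for Fos and 1.12 to 2.83 for Atf3) nevertheless overlapped those of L-con. The intervals cover counting error only, and the difference was not tested. Jun, at 25.1 CPM in L-con, was also above both con libraries, but its interval (22.3 to 28.1) held the 23.3 CPM of con replicate 1, and Junb, Egr1 and Ier2 were no higher than the higher con library, at 30.3, 8.90 and 40.1 CPM. No group held enough samples for a search for single outlying samples.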

How the results depend on the processing

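Of the counts and medians that answer a comparison, 122 values under alternatives stayed close to the reported one and 19 did not. For a count, close meant within 1.5 times. For a median, it meant a move smaller than the SD of the members' mean log2 level over the sorted libraries of that population. For con to Lt the 3 members called became 1 with at least 10 counts required in every library and 5 with no filter, for con to Ht and con to CRLM the 5 became 3 with at least 10 counts, for Lt to Mt the 0 became 2 with no filter and 1 with DESeq2, and for Mt to Ht the 1 became 0 with total-count scaling. The requirement of 10 counts removes genes such as Fosb from the test; the other causes were not tested. Against all metastasis groups in place of Mt2 the members' median log2 differences were 5.27 and 5.16. With 1 replicate left out, the count of all genes called moved too, as given above for con to Lt, Lt to Mt and Mt to Ht. The ranges that follow are therefore not particular to the members. Leaving out 1 replicate gave 0 to 3 members called for con to Lt, 0 to 1 for Lt to Mt, 0 to 2 for Mt to Ht, 4 to 5 for con to Ht and for con to CRLM, 4 to 7 for any difference and 0 for F4/80+ against CD11b+. It gave 57 to 64 and 58 to 63 list genes and medians of 4.07 to 5.27 (5.27 without Mt2 replicate 1) and 4.54 to 5.02.

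Total-count scaling moved the median of all genes to 0.40 for con to Lt, 0.33 for Lt to Mt, 0.55 for Mt to Ht, 1.28 for con to Ht and 0.75 for con to CRLM, and the share of called genes that were higher from 10.0% to 59.3% for Mt to Ht, from 51.7% to 79.7% for con to Ht and from 59.0% to 83.0% for con to CRLM. Under DESeq2 that share was 44.3% in place of 9.09% for F4/80+ against CD11b+, where 300 genes were called in place of 11. Log2 differences that turned sign with total-count scaling were Fos 0.45, Junb 0.0041, Ier2 0.12, Hspa1a 0.40 and Hspa1b 0.086 for Mt to Ht, Ier2 0.48 and Hspa1b 0.87 for con to Ht, and Ier2 0.31 and Hspa1b 0.63 for con to CRLM, none of them called in the reported fit. With no filter Fos was 0.0097 for Mt to Ht and Hspa1b 0.015 for con to CRLM, and with at least 10 counts Hspa1b was 0.057 for con to CRLM.

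Leaving out 1 replicate turned the sign of some uncalled members, with log2 ranges for con to Lt of -0.91 to 0.66 (Hspa1a), -0.75 to 0.21 (Hspa1b) and -0.90 to 0.077 (Dusp1), for Lt to Mt of -0.12 to 0.18 (Ier2) and -0.19 to 0.19 (Dusp1), for Mt to Ht of -0.27 to 0.10 (Fos) and -0.44 to 0.41 (Hspa1a), for Hspa1b of -0.71 to 0.25 in con to Ht and -0.42 to 0.54 in con to CRLM, and for F4/80+ against CD11b+ of -0.15 to 0.31 (Fos), -0.018 to 1.10 (Fosb), -0.028 to 0.22 (Jun), -0.71 to 0.15 (Atf3), -0.13 to 0.75 (Hspa1a) and -0.081 to 0.79 (Hspa1b).

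Under a replicate block the counts of members called were 3 for con to Lt, 0 for Lt to Mt, 1 for Mt to Ht, 5 for con to Ht, 5 for con to CRLM, 0 for F4/80+ against CD11b+ and 6 for any difference, as without it. The labels do not say whether same-numbered samples of different groups share an animal. In tissue, deviations of same-numbered samples correlated at 0.24 to 0.72 between Lt, Mt3, Mt2 and Mt1, and at -0.36 to -0.06 where con or Ht was in the pair. In sorted cells they correlated at -0.14 to 0.01. Whether the metastasis samples are independent across groups is thus not known.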
